A study of Callithrix jacchus with 4 samples.

Results

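The 7 genes described here, *CUX1*, *CUX2*, *RORB*, *FOXP2*, *FEZF2*, *THEMIS* and *TLE4*, are transcripts by which excitatory neurons (ExN) of different cortical layers are told apart. They were chosen by name as layer markers, and all 7 were among the 16383 genes listed for both cohorts. They were measured in 14838 ExN nuclei of 38147 nuclei from marmoset primary visual cortex (V1). The cell type of each nucleus is the one that the authors gave to its cluster. Adult marmosets of the injured cohort received endothelin-1, a vasoconstrictor peptide that causes a focal ischemic stroke, and V1 including the lesion core and penumbra was collected after 7 days from 3 animals (1 library each, injured replicates 1, 2 and 3). V1 nuclei of 3 adult marmosets without lesion were pooled in 1 control library, which gives no measure of how much control animals vary. ExN contributed 1861, 4562 and 3013 nuclei in injured replicates 1, 2 and 3 and 5402 nuclei in the control library. Each injured replicate is 1 animal, and no sham-injected group was analysed here.

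The neocortex is built in layers, and its excitatory neurons carry transcription programs that follow the layer and the target of their axons. *CUX1* and *CUX2* are homeobox factors of upper-layer neurons, which project within the cortex, and *RORB* is a nuclear receptor best known from the granular layer IV that receives visual input from the thalamus and is thick in primate V1. Among deep-layer genes, *FEZF2* is a zinc finger factor that directs the fate of subcortically projecting neurons, *FOXP2* and the co-repressor *TLE4* mark neurons of layer VI that project to the thalamus, and *THEMIS*, named for its part in thymocyte selection, marks a class of deep neurons that project within the cortex.

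Depth differed between the cohorts, and it bears on every share of nuclei given below. The median ExN nucleus held 7077, 5378 and 6358 unique molecular identifiers (UMIs, tags that each mark a captured transcript) in injured replicates 1, 2 and 3 and 2678 in the control library. Each nucleus was therefore reduced to 2000 randomly drawn UMIs, and nuclei with fewer were left out, which removed 1.45% to 3.32% of ExN nuclei per injured library and 31.1% in the control library. This left 1834, 4412 and 2913 injured nuclei and 3721 control nuclei. The loss was uneven among the authors' control clusters. Clusters 2 and 3, with *RORB* in 83.2% and 86.25% of the nuclei left, kept 393 of 896 and 320 of 776 nuclei. Cluster 0, with *RORB* in 60.9%, kept 998 of 1056. Cluster 7, with *RORB* in 5.19%, kept 231 of 383, and cluster 12, with 94.3%, kept 159 of 224. The libraries held 35737777, 48722394, 42956736 and 22832703 UMIs in all. Any pair of libraries had 15 to 27 nuclear barcodes in common, with 0 to 11 of them among ExN of both. The ExN markers *SYT1*, *RBFOX3*, *GRIN2A*, *CUX1*, *CUX2* and *SLC17A7* each had their highest level in ExN in both cohorts. *CUX1* and *CUX2* were among the markers with which the authors named the ExN clusters, so their enrichment in ExN is not a finding.

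At equal depth, the upper-layer markers were detected in similar shares of ExN nuclei in all 4 libraries. *CUX1* had a UMI in 80.9%, 80.9% and 80.4% of nuclei of injured replicates 1, 2 and 3 (80.7% ± 0.31, SD, n = 3) and in 83.1% of control nuclei. All 3 injured libraries lay below the control library, by 2.35 percentage points on average. *CUX2* was detected in 56.2%, 54.7% and 56.5% of injured nuclei (55.8% ± 0.96) and in 52.1% of control nuclei. Here all 3 injured libraries lay above the control library, by 3.68 percentage points on average. For *CUX2*, exact (Clopper-Pearson) 95% binomial intervals, which cover counting error alone, were compared. That of injured replicate 2, the lowest injured library, ran from 53.2% to 56.2% and overlapped with that of control, 50.5% to 53.7%. Those of injured replicates 1 (53.9% to 58.4%) and 3 (54.7% to 58.3%) lay above that of control.

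*RORB* was detected in 65.6%, 64.7% and 60.7% of injured nuclei (63.6% ± 2.6) and in 59.7% of control nuclei. The 3 injured libraries lay above the control library, but injured replicate 3 was closer to control than to the other injured libraries. Control clusters rich in *RORB* were among those that lost most nuclei at this depth, and the part of this in the comparison was not tested. The distance from the injured mean to control, 3.90 percentage points, was smaller at this depth than the range of 4.94 percentage points among the injured libraries. A second random draw of UMIs gave a distance of 5.19 percentage points, and at 4000 UMIs it was 6.77 ± 1.6 percentage points (SD), larger than the spread among the injured libraries. That depth left out 75.7% of control ExN nuclei and 12.8% to 20.8% of those of the injured libraries, so different nuclei were compared.

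The deep markers were detected in fewer nuclei. *FOXP2* was found in 18.8%, 13.9% and 16.8% of injured nuclei (16.5% ± 2.4) and in 14.6% of control nuclei, which lay inside the injured range. *THEMIS* was found in 11.2%, 14.1% and 12.2% of injured nuclei (12.5% ± 1.5) and in 13.7% of control nuclei, also inside the injured range at this depth. At 4000 UMIs the injured mean for *THEMIS* lay 5.53 ± 2.36 percentage points below control. *TLE4* was found in 17.0%, 24.2% and 14.5% of injured nuclei (18.6% ± 5.1) and in 16.3% of control nuclei. The high value of *TLE4* came from injured replicate 2, whose 95% interval of 22.9% to 25.5% lay apart from the intervals of the other 3 libraries. Without injured replicate 2 the injured mean for *TLE4* lay 0.61 percentage points below control instead of 2.22 percentage points above it.

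*FEZF2* was the most sparsely detected marker. It was found in 40 of 1834, 59 of 4412 and 93 of 2913 injured nuclei, which is 2.18%, 1.34% and 3.19% (2.24% ± 0.93), and in 45 of 3721 control nuclei, 1.21%. The 95% intervals of injured replicate 2 (1.02% to 1.72%) and control (0.88% to 1.61%) overlapped, and that of injured replicate 3 (2.58% to 3.90%) lay above both. Thus injured replicate 3 was highest for *FEZF2*, injured replicate 2 for *TLE4* and *THEMIS*, and injured replicate 1 for *FOXP2*. The deep markers had no common order among the injured animals.

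**Figure D1:**
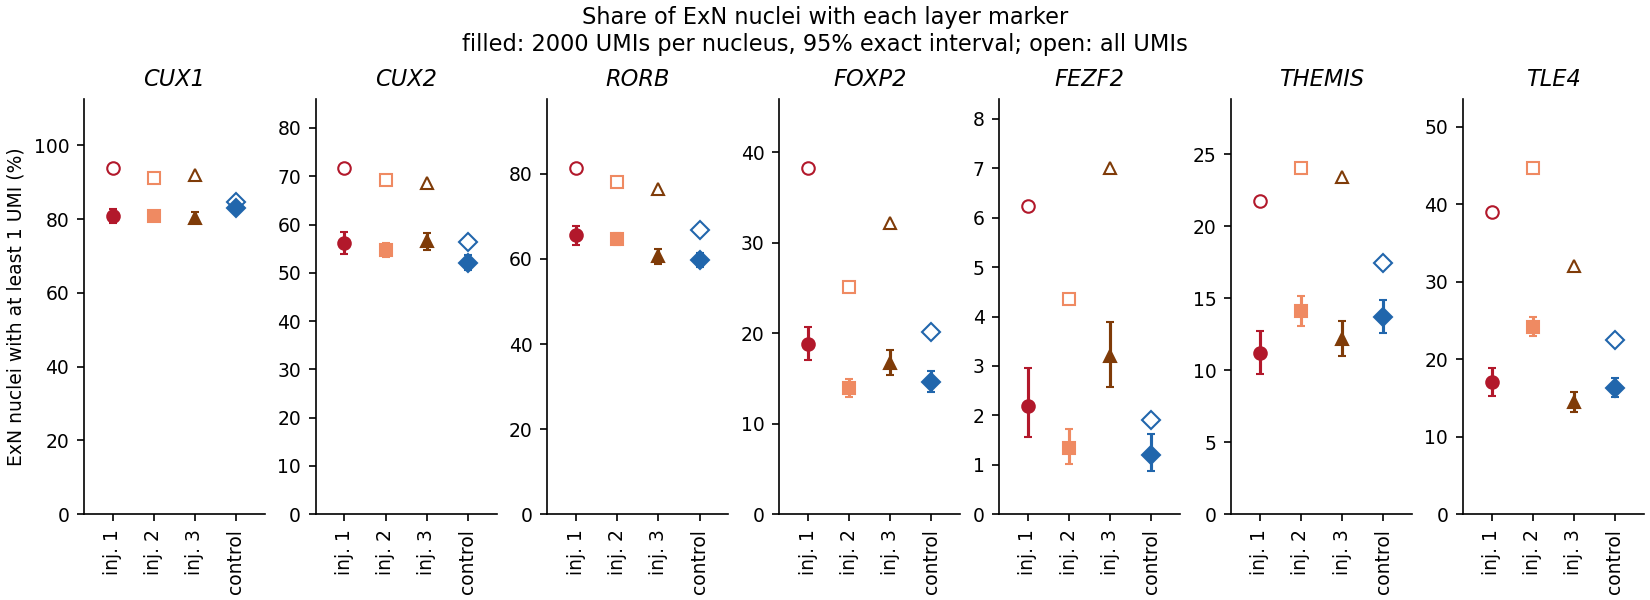
Share of ExN nuclei with at least 1 UMI of each layer marker (percent, vertical axis, a scale of its own in each panel starting at 0) in the 3 injured libraries and the pooled control library. Filled symbols show nuclei thinned to 2000 UMIs with exact 95% binomial intervals and open symbols show all UMIs of all nuclei. The open symbols of all 7 markers are higher in every injured library than in control, whereas the filled symbols overlap with control for *FOXP2*, *THEMIS* and *TLE4*, and lie below control for *CUX1*.

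Without thinning, each of the 7 markers was detected in a larger share of nuclei in every injured library than in the control library. The unthinned injured mean and control share were 92.3% and 84.5% for *CUX1*, 69.8% and 56.3% for *CUX2*, 78.7% and 66.8% for *RORB* and 31.9% and 20.2% for *FOXP2*. They were 5.87% and 1.91% for *FEZF2*, 23.1% and 17.5% for *THEMIS* and 38.5% and 22.5% for *TLE4*. At 2000 UMIs per nucleus, 3 of the 7 markers lay above control in all injured libraries (*CUX2*, *RORB* and *FEZF2*), 1 lay below it in all of them (*CUX1*) and 3 overlapped with it. For *CUX1* and *THEMIS* the injured mean was above control in the unthinned nuclei and below it at equal depth, as the plot of shares by library shows.

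The number of UMIs per positive nucleus is given beside the shares for the upper markers and *RORB*. In nuclei with *CUX1*, the mean at 2000 UMIs was 4.66, 4.32 and 4.72 UMIs in the injured libraries and 5.12 in control. In nuclei with *RORB* it was 3.07, 2.93 and 2.56 UMIs in the injured libraries and 2.26 in control, and 2 or more UMIs of *RORB* were present in 46.3%, 44.5% and 39.2% of injured and 35.2% of control nuclei. *CUX2*-positive nuclei held 2.18, 2.06 and 2.36 UMIs in the injured libraries and 2.01 in control. Both *RORB* and *CUX2* thus lay above control in every injured library by share and by count per positive nucleus, and *CUX1* lay below it by both.

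To ask whether injured and control ExN differed in these genes beyond the spread between animals, UMI counts were summed over the ExN nuclei of each library and compared with edgeR's quasi-likelihood test. With 1 control library the spread came from the injured libraries and was assumed for control. The cohorts also differed in how nuclei were isolated (ultracentrifugation onto a dense sucrose cushion for injured, low-speed centrifugation and then sorting of stained nuclei for control), in the facility that made the libraries and in the sequencing platform (Illumina and MGI), and these cannot be told apart from injury in any comparison here. An exact permutation test of 3 libraries against 1, with the one-sided p doubled, could not go below a p of 0.5. A call needed an adjusted p below 0.01, a natural-log fold change of more than 0.25 in either direction and detection of the gene in 10% or more of the ExN nuclei of either cohort. By this rule 582 of 15122 genes tested were called, or 3.85%, and 7.80% of the 7461 genes that reached the detection limit. The number called rested on the libraries used, and was 78 when injured replicate 1 was left out, 885 when replicate 2 was and 926 when replicate 3 was. Of the 582 called genes, 31 had no UMI in any injured ExN nucleus, whereas each of the 7 markers had UMIs in all 4 libraries. None of the 7 layer markers was called (0 of 7, of which *FEZF2* was under the detection limit). DESeq2 also called 0 of 7, against 1193 of 15122 genes tested. At an unadjusted p below 0.05 there were 2 of 7 markers, against 40.2% of all genes tested. Their log2 fold changes were positive for 6 of 7, while the median over all genes tested was 0.0039.

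*CUX1* had a level of 1879, 1678 and 1851 CPM (UMIs of the gene scaled to a sum of 1000000 per library) in the summed ExN counts of injured replicates 1, 2 and 3 and 2115 CPM in control. The 3 injured libraries were all lower than control, and the log2 fold change was -0.12 ± 0.13 (SE) with a 95% interval of -0.43 to 0.20 (edgeR, Benjamini-Hochberg adjusted p = 0.54). In nuclei with at most 2500 genes the sign was turned, with a log2 fold change of 0.090 (edgeR, adjusted p = 0.71).

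*CUX2* had 604, 537 and 654 CPM in the injured libraries and 520 CPM in control, the lowest of the 4 values. The log2 fold change of *CUX2* was 0.32 ± 0.14 (95% interval -0.02 to 0.66; edgeR, adjusted p = 0.14). *RORB* had 1012, 901 and 746 CPM in the injured libraries and 658 CPM in control, again without overlap. Its log2 fold change of 0.54 ± 0.18 had a 95% interval of 0.11 to 0.97 that did not include 0, but it did not pass after adjustment over all genes (edgeR, adjusted p = 0.070, range 0.012 to 0.22 over 12 settings). *RORB* and *FEZF2* were the 2 markers with an unadjusted p below 0.05.

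Of the deep markers, *FOXP2* had 139, 93.2 and 110 CPM in the injured libraries and 97.2 CPM in control, so injured replicate 2 was below control and the others above. *THEMIS* had 76.9, 118 and 106 CPM in the injured libraries and 95.1 CPM in control, with injured replicate 1 lowest. *TLE4* had 116, 189 and 102 CPM in the injured libraries and 112 CPM in control, and injured replicate 2 alone stood apart. The groups overlapped for all 3 of these genes. Their log2 fold changes were 0.34 ± 0.20 for *FOXP2* (edgeR, adjusted p = 0.25), 0.20 ± 0.24 for *THEMIS* (edgeR, adjusted p = 0.58) and 0.40 ± 0.35 for *TLE4* (edgeR, adjusted p = 0.42). Without injured replicate 1 the value was 0.19 for *FOXP2* and 0.36 for *THEMIS*, and without injured replicate 2 it was 0.05 for *THEMIS* and 0.06 for *TLE4*. In nuclei with at most 2500 genes that of *THEMIS* was -0.16.

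*FEZF2* had 12.3, 10.2 and 16.1 CPM in the injured libraries, from 156, 258 and 305 UMIs, and 6.73 CPM in control, from 115 UMIs. All 3 injured libraries were above control, and the log2 fold change was 1.05 ± 0.30 with a 95% interval of 0.32 to 1.78 (edgeR, adjusted p = 0.049, range 0.016 to 0.48 over 12 settings). It was 0.96 ± 0.51 with sums at 2000 UMIs (edgeR, adjusted p = 0.22) and 0.73 ± 0.64 in nuclei with at most 2500 genes (edgeR, adjusted p = 0.48). *FEZF2* could not be called, since 5.57% of all injured ExN nuclei and 1.91% of control ExN nuclei had a UMI of it, under the 10% limit. Its level also differed between the cohorts in some other cell types, as given below.

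**Figure D2:**
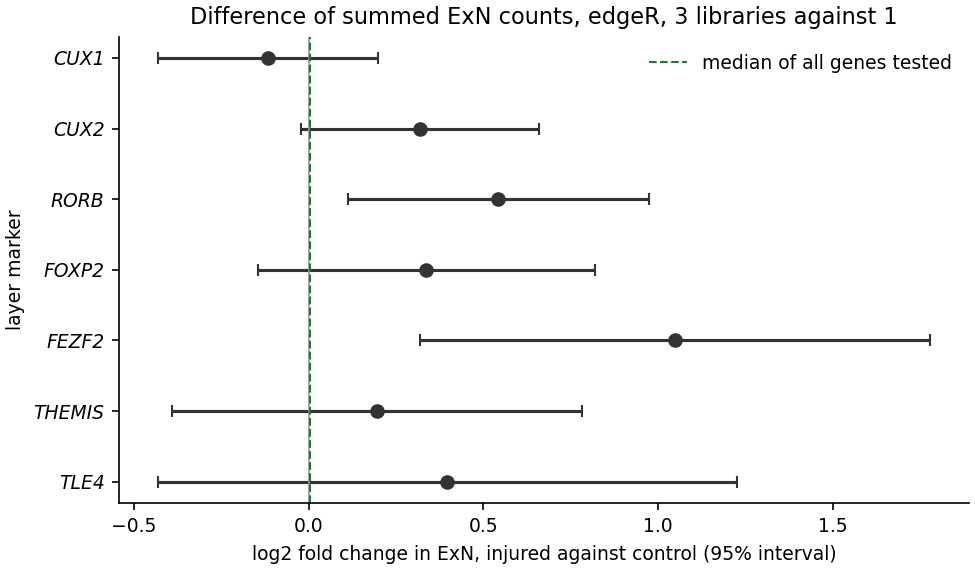
Log2 fold change of each layer marker in summed ExN counts, injured against control (horizontal axis, points), with 95% intervals from edgeR (bars) and the median of all 15122 genes tested (dashed line, 0.0039). The intervals of *RORB* and *FEZF2* lie to the right of 0 and those of the other 5 markers include 0.

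In a ratio within a library, deep markers (*FOXP2*, *FEZF2*, *THEMIS* and *TLE4* together) can be set against upper markers (*CUX1* and *CUX2*) without reference to library size. The log2 ratio of deep to upper UMIs was -2.85, -2.43 and -2.91 in injured replicates 1, 2 and 3 and -3.08 in control. Injured replicate 2 was highest, and the mean difference of 0.35 ± 0.26 (SD) was 0.20 without it and 0.098 in nuclei with at most 2500 genes. The log2 ratio of *RORB* to upper UMIs was -1.29, -1.30 and -1.75 in the injured libraries and -2.00 in control, a mean difference of 0.55 ± 0.26 that was 0.29 ± 0.34 in nuclei with at most 2500 genes. Against *CUX2* alone, the deep markers had log2 ratios of -0.82, -0.39 and -0.97 in the injured libraries, and control at -0.74 lay inside that range. The mean difference was then 0.015 ± 0.30 (SD). The balance of deep markers with *CUX2* thus overlapped between cohorts. More nuclei of a layer, a different share of layers in the dissected tissue and more transcript per nucleus cannot be told apart in these ratios.

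Combinations of the layer markers within nuclei had the same sign in all 4 libraries for 20 of 21 pairs. For each of the 21 pairs, the number of nuclei with a UMI of both genes at 2000 UMIs was divided by the number that independent detection would give, in libraries where that number was at least 5. The ratio was above 1 in all 4 libraries for 7 pairs and below 1 in all 4 libraries for 13 pairs, and 1 pair (*FEZF2* and *THEMIS*) had too few nuclei in injured replicate 1 (7 nuclei with 4.47 under independence). In the other libraries that pair had ratios of 0.48 and 0.71 in injured replicates 2 and 3 and of 0 in control, where 6.17 nuclei would be shared under independence. At this depth none of the 20 pairs changed sides between injured and control.

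Of the 7 pairs above 1, 3 joined *CUX1*, *CUX2* and *RORB* with each other, 3 joined *FOXP2*, *FEZF2* and *TLE4* with each other, and 1 joined *RORB* with *FOXP2*. *CUX1* and *CUX2* had ratios of 1.14, 1.15 and 1.16 in the injured libraries and 1.13 in control. At these high shares the ratio has little room to rise, since 92.1% to 93.7% of *CUX2*-positive nuclei also had *CUX1* in every library. *CUX2* and *RORB* had ratios of 1.07, 1.10 and 1.07 in the injured libraries and 1.12 in control.

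*FEZF2* and *TLE4* were found together in 11 nuclei of injured replicate 1, 35 of injured replicate 2 and 40 of injured replicate 3, and in 26 control nuclei. Their ratios were 1.62, 2.45 and 2.98 in the injured libraries and 3.54 in control, which was the highest of the 4. For *FOXP2* and *FEZF2* the ratios were 2.13, 2.55 and 2.44 in the injured libraries and 3.04 in control. For *FOXP2* and *TLE4* they were 1.21, 1.46 and 1.38 in the injured libraries and 1.51 in control. All 3 pairs thus had their highest ratio in the control library, but the expected number for *FEZF2* pairs was 6.58 to 15.6 nuclei per library and the difference between cohorts was not tested.

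Of the 20 pairs, *CUX2* and *FEZF2* had the lowest ratio in each library. They shared 2 nuclei of injured replicate 1, 7 of injured replicate 2, 8 of injured replicate 3 and 1 control nucleus, where independence would give 22.5, 32.3, 52.6 and 23.4 nuclei. *CUX2* and *THEMIS* had ratios of 0.71, 0.60 and 0.51 in the injured libraries and 0.70 in control. *FOXP2* and *TLE4* also stood apart from *THEMIS*, with ratios of 0.62 to 0.81 in the injured libraries and 0.64 in control for *FOXP2*, and of 0.66 to 0.80 and 0.73 for *TLE4*. *RORB* did not side with either group as a whole, since its ratio was above 1 with *FOXP2* (1.21, 1.06 and 1.19 in the injured libraries and 1.04 in control) and below 1 with the other deep markers. At 4000 UMIs the ratio of *RORB* with *FOXP2* was 0.98 in control and 1.09 in the injured mean, on different sides of 1.

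**Figure D3:**
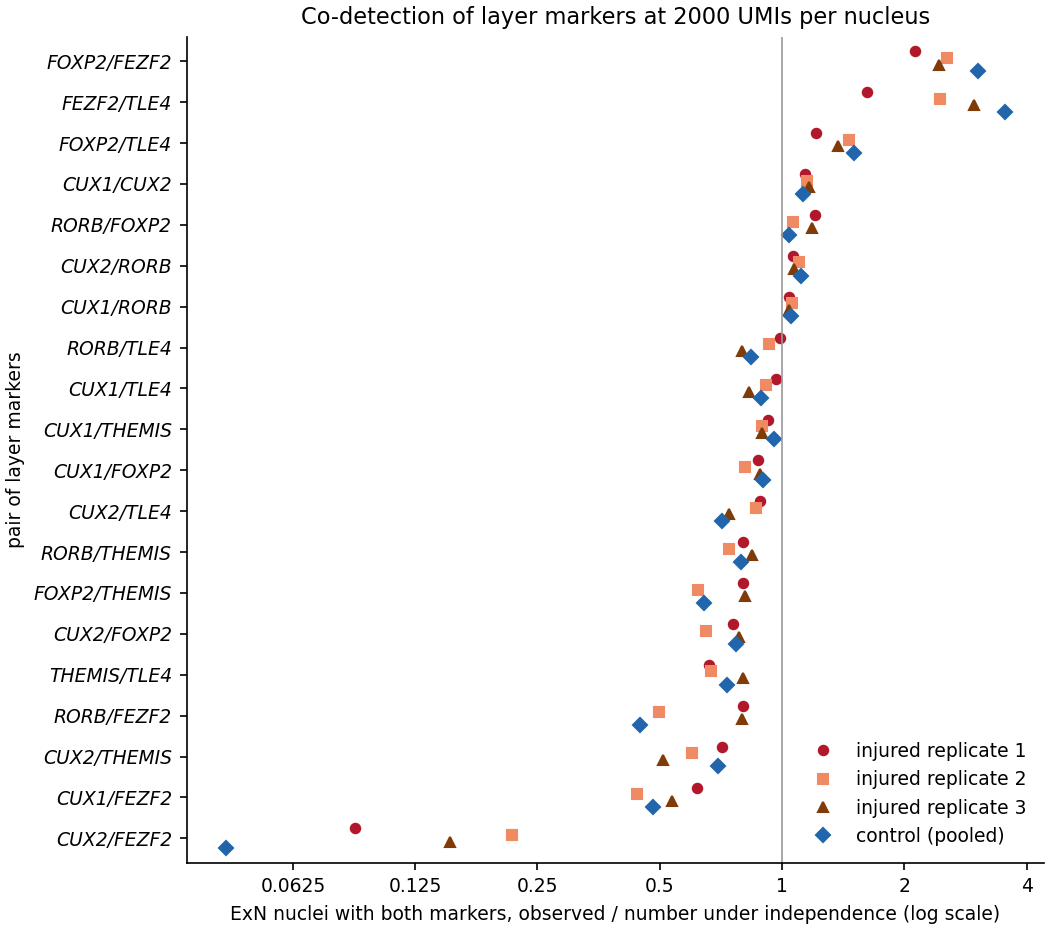
Nuclei with a UMI of both markers of a pair, divided by the number under independent detection (horizontal axis, log scale), for the 20 pairs with enough nuclei in the 3 injured libraries and control at 2000 UMIs per nucleus. In every library, 7 pairs lie right of 1 and 13 lie left of it, with *FEZF2* and *TLE4* farthest right in control and *CUX2* and *FEZF2* farthest left in all 4 libraries.

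Sorted by *CUX2* and the 4 deep markers, the ExN nuclei fell into similar shares. Nuclei with *CUX2* and no deep marker made up 37.5%, 35.5% and 41.0% of the injured libraries and 36.7% of control. Nuclei with a deep marker and no *CUX2* made up 22.6%, 25.3% and 22.8% of the injured libraries and 23.2% of control. In both classes the control value lay inside the injured range.

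Nuclei with *CUX2* and a deep marker made up 18.6%, 19.2% and 15.5% of the injured libraries and 15.4% of control. Those with neither made up 21.2%, 20.0% and 20.7% of the injured libraries and 24.7% of control, which was the largest gap of these classes. None of the 7 markers was detected in 2.89%, 2.11% and 2.44% of injured nuclei and in 2.42% of control nuclei. As detection at 2000 UMIs is incomplete, a nucleus without a UMI of a marker is not shown to lack it.

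The authors clustered the 2 cohorts separately, and their clusters, which were formed from expression, are described here without a test. The 5402 control ExN nuclei lay in 10 clusters, of which the largest held 19.5%, and the 9436 injured ExN nuclei lay in 9 clusters, of which the largest held 57.2%. In the control library, *CUX2* was detected at equal depth in under 10% of nuclei in 4 clusters (25.1% of nuclei), whereas no injured cluster fell under 10%. The 2 sets of clusters therefore did not resolve these genes alike, and they were not matched to each other.

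In control cluster 10, *TLE4* was detected in 66.7% of nuclei, *FOXP2* in 44.2% and *FEZF2* in 11.7%, while *CUX2* was in 5.42% and *THEMIS* in 1.25%. In control cluster 11, *THEMIS* was in 68.9% of nuclei and *FOXP2* in 3.39%. Control cluster 5 held *RORB* in 67.6% of nuclei with *CUX2* in 4.87%, and control cluster 7 the opposite, with *CUX2* in 73.2% and *RORB* in 5.19%. *FEZF2* was at 0 in 8 of the 10 control clusters at 2000 UMIs, and in 6 of them before thinning.

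The largest injured cluster, number 2 with 5401 nuclei, held all 7 markers at intermediate shares, among them *CUX2* in 47.7%, *THEMIS* in 18.4% and *FEZF2* in 2.78%. The next, number 13 with 2455 nuclei, had *CUX2* in 74.2%, *RORB* in 84.8%, *THEMIS* in 1.55% and *FEZF2* in 0.172%. Injured cluster 8, with 164 nuclei, had the lowest *CUX2* share (11.1%) beside *RORB* in 68.5% and *FEZF2* in 8.02%.

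**Figure D4:**
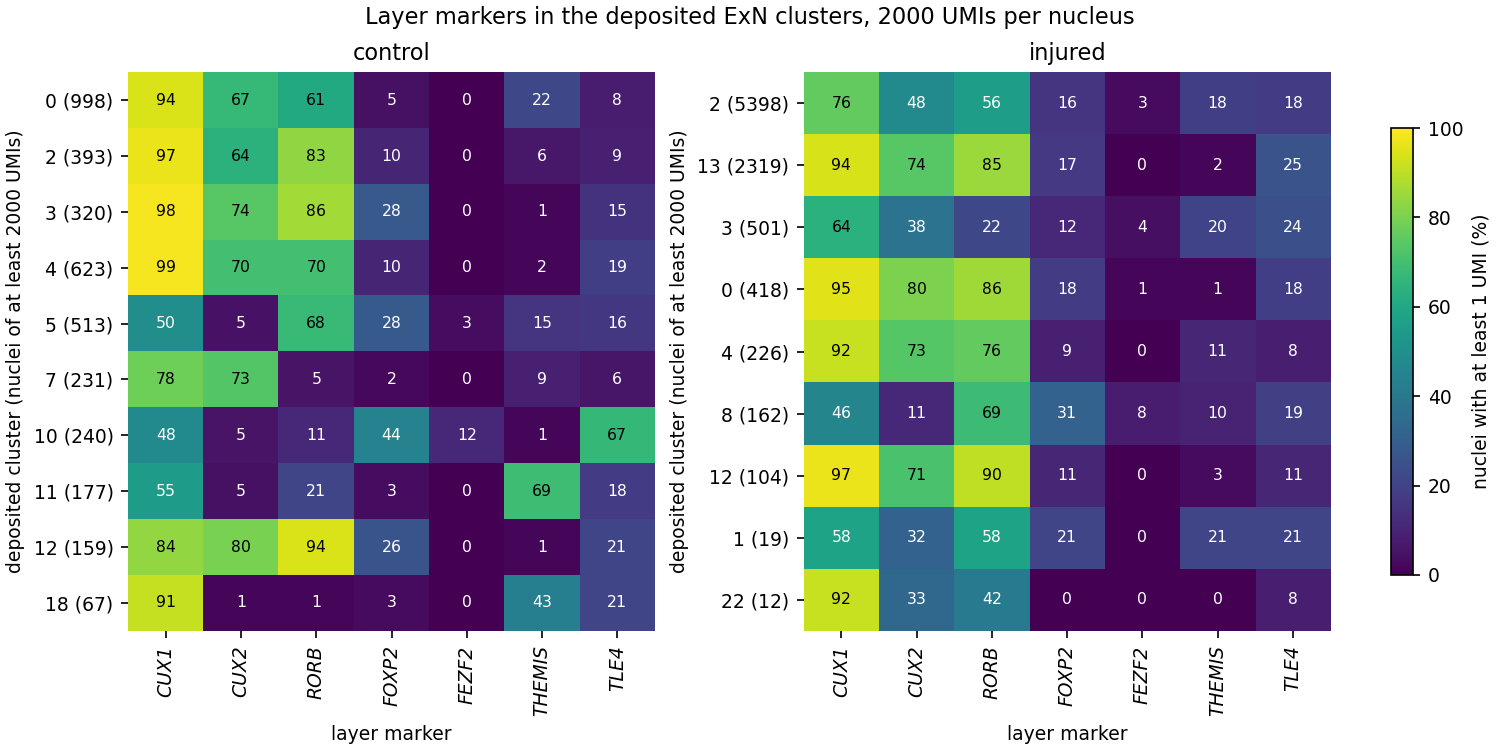
Share of nuclei with at least 1 UMI of each layer marker at 2000 UMIs per nucleus (colour and number, percent) in each deposited ExN cluster of the control (left) and injured (right) cohort, ordered by size, with the number of nuclei of at least 2000 UMIs in brackets. Control clusters 10 and 11 stand out by *TLE4* and *THEMIS*, and the largest injured cluster holds intermediate shares of all markers.

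Most, but not all, of these genes had their highest level in ExN. *CUX1*, *CUX2*, *FEZF2* and *THEMIS* had a higher CPM in ExN than in any other cell type in 4 of 4 libraries, and *RORB* did so in 3 of 4. *RORB* was at 557, 713 and 556 CPM in injured astrocytes and at 737 CPM in control astrocytes, where it exceeded the 658 CPM of control ExN. *FOXP2* was highest in endothelial nuclei in 3 of 4 libraries, with 125, 157 and 173 CPM in the injured libraries and 328 CPM from 67 UMIs in control.

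*TLE4* was in no library highest in ExN. In oligodendrocytes it had 315, 381 and 221 CPM in the injured libraries and 232 CPM in control, and in oligodendrocyte precursor cells it had 236, 330, 205 and 278 CPM. Injured replicate 2 had the highest *TLE4* of the injured libraries in 6 of 7 cell types, so its high value was also present outside ExN.

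**Figure D5:**
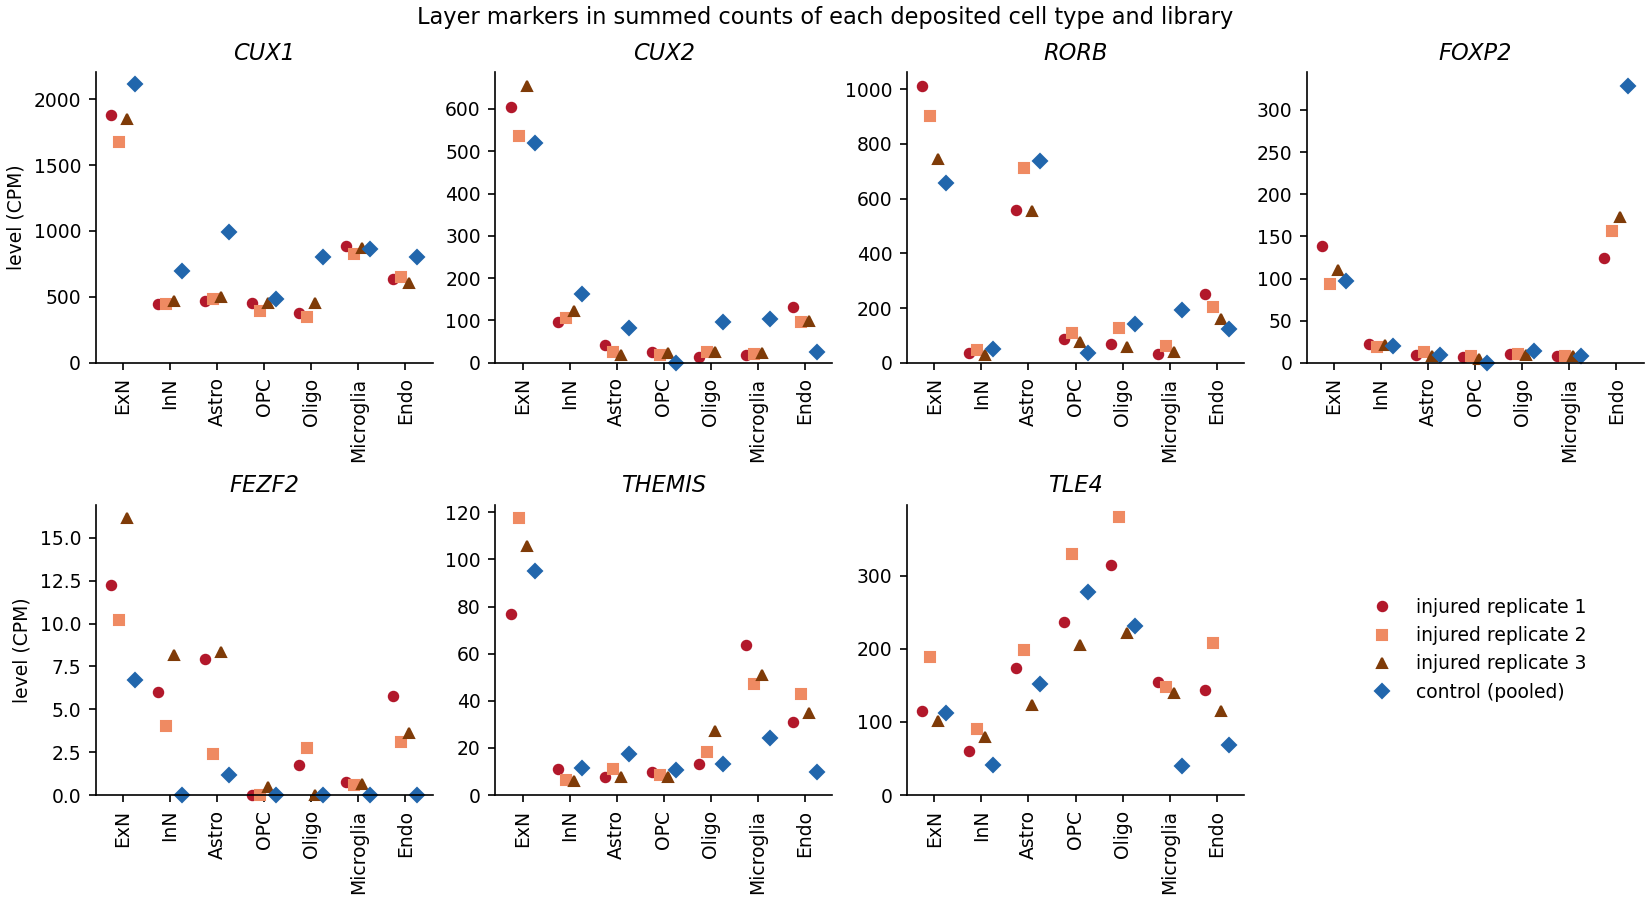
Level of each layer marker in CPM (vertical axis, a scale of its own in each panel starting at 0) in the summed counts of each deposited cell type, with a symbol for each of the 4 libraries. *TLE4* is highest in oligodendrocytes (Oligo) or their precursors (OPC), *RORB* is higher in astrocytes (Astro) than in ExN of the control library, and *FOXP2* is also high in endothelial nuclei (Endo).

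Inhibitory neurons (InN) served as the background for shares of nuclei, with median depths of 6628, 4846.5 and 5719 UMIs in the injured libraries and 2441 in control. At 2000 UMIs, the share with *CUX2* was 15.2% in InN of the 3 injured libraries pooled and 19.0% in control InN. The corresponding shares were 6.60% and 6.22% for *RORB*, 3.07% and 3.51% for *FOXP2* and 1.31% and 2.23% for *THEMIS*. By library, *RORB* was in 5.60%, 8.15% and 4.81% of injured InN nuclei (mean 6.19%), a range that held the control share. *FOXP2* was in 3.64%, 3.05% and 2.79%, which also held it. *CUX2* (12.3%, 15.6% and 16.1%) and *THEMIS* (1.68%, 1.32% and 1.09%) lay below control in every injured library. These shares lay well under those of ExN. As a ratio of ExN to InN, *CUX1* was nearer, with 54.7% of pooled injured and 65.1% of control InN nuclei, against 80.7% and 83.1% in ExN. *TLE4* was detected in 7.56%, 14.7% and 12.2% of injured InN nuclei and 7.66% of control InN nuclei, and for this gene too the ratio of ExN to InN was smaller.

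For *FEZF2* the InN share at 2000 UMIs was 1.12%, 0.41% and 1.71% in the injured libraries. These shares rest on 4, 4 and 11 nuclei with a UMI. In all 3 the 95% interval overlapped with that of ExN of the same library. In injured replicate 3 it was 0.85% to 3.03% in InN and 2.58% to 3.90% in ExN. Without thinning, the intervals of InN and ExN did not overlap in any injured library. The upper limits in InN were then 4.88%, 2.47% and 4.91%, and the lower limits in ExN were 5.18%, 3.79% and 6.12%. The median ExN nucleus was also deeper than the median InN nucleus in each of these libraries. In control InN, *FEZF2* was found in 0 of 627 nuclei at 2000 UMIs, which allows a share of nuclei with a UMI of up to 0.587% (exact binomial 95% limit). Over all UMIs it had 0 in control InN, and the 70 UMIs of injured InN made the level at least 6.0-fold higher than that of control InN, taking 3 UMIs over the control library as the floor. The higher *FEZF2* of injured ExN thus stood beside a higher *FEZF2* in injured InN. Injured astrocytes had 7.94, 2.39 and 8.35 CPM, and control astrocytes had 1.16 CPM from 1 UMI. Other glia held almost no *FEZF2*. The pooled injured libraries had 18 UMIs in 7733 microglia, 10 in 2462 oligodendrocytes and 1 in 1136 oligodendrocyte precursor cells. Control nuclei of these types had 0 UMIs. The part of InN and astrocytes in the ExN difference was not tested.

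Whether the cohorts differed more in ExN than in InN of the same libraries was tested as an interaction, with library as a block. The difference in log2 fold change, ExN minus InN, was 0.80 ± 0.15 (SE) for *CUX2* (edgeR, adjusted p = 0.080) and 0.83 ± 0.21 for *RORB* (edgeR, adjusted p = 0.33). In InN alone, the log2 fold changes of these genes were -0.50 and -0.31. It was 0.38 ± 0.12 for *CUX1* (edgeR, adjusted p = 0.55) and -0.66 ± 0.25 for *TLE4* (edgeR, adjusted p = 0.71), whose log2 fold change in InN was 1.03. No layer marker was called in this test, against 2 of 14840 genes tested, or 0.0135%.

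The calls of this test changed when injured replicate 2 was left out. Without it 4 of the 7 markers and 173 of all 14744 genes tested, or 1.17%, were called. Among them were *CUX2* with a difference of 0.86 ± 0.16 (SE), *RORB* with 1.03 ± 0.19 and *TLE4* with -0.84 ± 0.19. For *CUX2* the difference and its SE were close to those with all libraries (0.80 ± 0.15). What changed the call of *CUX2* was not tested. *FEZF2* was also called there, but its fitted difference rests on the 0 UMIs of control InN and has no measured size. Without injured replicate 1, 0 of 7 markers and 0 of 14995 genes tested were called. Without injured replicate 3 these were 0 of 7 and 25 of 14776. The differences in these 2 fits were 0.71 and 0.83 for *CUX2*, 0.71 and 0.77 for *RORB* and -0.73 and -0.45 for *TLE4*.

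Other genes with a layer-restricted pattern were examined as a list. Of 30 genes, 22 could be tested in ExN, and none was called in either direction, although 11 of the 22 were under the 10% detection limit in both cohorts and could not have been called (5 of 22 had an unadjusted p below 0.05 in edgeR, against 40.2% of all genes). Their median log2 fold change was 0.20, against 0.0039 over all genes, and 16 of 22 were positive. The 2 highest were *OPRK1*, which encodes the kappa opioid receptor and was under the detection limit (0.98, edgeR, adjusted p = 0.082), and *PCP4*, which encodes a small calmodulin-binding protein (0.82, edgeR, adjusted p = 0.061). The 2 lowest were *HTR2C*, which encodes a serotonin receptor and was also under the limit (-0.94, edgeR, adjusted p = 0.054), and *RASGRF2*, an upper-layer gene for an exchange factor of Ras (-0.39, edgeR, adjusted p = 0.15).

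Genes of excitatory neurons in general gave similar values. All 12 of a second list could be tested, 2 of them under the detection limit, and 0 were called (5 of 12 had an unadjusted p below 0.05, against the same 40.2%), and 11 of 12 were positive with a median of 0.34. The highest were *SLC17A6*, a vesicular glutamate transporter (0.98, edgeR, adjusted p = 0.010, just over the limit), and the transcription factor *NEUROD2*, under the detection limit (0.89, edgeR, adjusted p = 0.064). The lowest were the main cortical glutamate transporter *SLC17A7* (-0.06, edgeR, adjusted p = 0.76) and the kinase *CAMK2A* (0.02, edgeR, adjusted p = 0.90). The positive values of 6 of 7 layer markers thus stood beside positive values of 11 of 12 general excitatory genes.

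Markers of other cell types were measured in ExN nuclei beside these results. The 5 InN markers had a summed level of 17.2 to 22.9 CPM in injured ExN and 13.6 CPM in control ExN, and the 6 astrocyte markers had 202 to 266 CPM and 246 CPM. The 4 listed microglial markers had 129 to 220 CPM in injured and 61.5 CPM in control ExN. Markers of oligodendrocyte precursor cells (3 genes) had 156 to 187 CPM and 232 CPM, those of oligodendrocytes (5 genes) had 152 to 167 CPM and 188 CPM, and those of endothelial cells (3 genes) had 40.8 to 50.3 CPM and 28.1 CPM. No marker of these lists was at 0. Removing the 1150 ExN nuclei with a UMI of *GAD1* or *GAD2* left the log2 fold changes at -0.12 for *CUX1*, 0.31 for *CUX2* and 0.53 for *RORB*. The part of the transcripts of these other cell types in the results was not tested.

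For each marker, the genes whose detection across ExN nuclei was most like it were taken from 8224 genes by the phi coefficient (the correlation of presence and absence of a UMI at 2000 UMIs), averaged over the 4 libraries. The coefficients are descriptions over nuclei that share a library. *RORB* was most like *FAM19A2* (mean 0.30, 0.27 to 0.35 over libraries) and *NTNG1*, which encodes the axonal adhesion protein netrin-G1 (0.27). Apart from the 7 markers themselves, which were left out of this search, *CUX2* was most like *FAM109A* (mean 0.28) and the protein kinase C gene *PRKCA* (0.26), and its coefficient with *CUX1* was 0.34. *PRKCA* and the phosphodiesterase gene *PDE3A* were among the 3 most like genes of both *CUX1* and *CUX2*, and *PDE3A* also of *RORB*.

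The coefficients of the deep markers were lower. *THEMIS* was most like *CSGALNACT1*, which encodes an enzyme that starts chondroitin sulfate chains (mean 0.19), followed by the gene listed as ENSCJAG00000012841 (0.17) and the cadherin gene *CDH12* (0.15). *TLE4* and *FEZF2* both had *DLC1* among their 3 most like genes (0.15 and 0.12). *TLE4* was also like *SEMA3E*, a semaphorin gene of the layer list (0.14), and *FEZF2* was most like *PDE1A* (0.14). *FOXP2* was most like *VWC2L* (0.14), *FSTL5* (0.13) and the metabotropic glutamate receptor gene *GRM3* (0.13). At these low coefficients the order of the genes carries little weight.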

How the data were processed

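The authors counted UMIs per gene and nucleus with Cell Ranger 3.1.0 on the marmoset genome calJac3 (Ensembl gene models). They used Scrublet to take out doublets of the injured cohort and a Seurat filter on genes per nucleus for the control cohort, clustered each cohort separately and named clusters from markers. The deposited tables hold raw UMI counts without normalization, with library, cluster and cell type (other annotation) of each nucleus. The methods give an upper limit of 2500 genes for control nuclei, but the deposited control table holds nuclei with up to 5366 genes, and injured nuclei reach 3999. Totals of all 38147 nuclei matched the counts.

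Counts were summed per library over ExN (and InN) nuclei and genes listed in both cohorts were tested with edgeR 4.0.16 (R 4.3.3), using filterByExpr, TMM factors, glmQLFit and glmQLFTest, with Benjamini-Hochberg adjustment over all genes tested. DESeq2 1.42.0 was an alternative. Shares, co-detection and phi coefficients were computed in Python 3.11.15 with numpy 2.4.6 and scipy 1.17.1 after thinning without replacement. Like genes had a UMI in at least 2% of thinned ExN nuclei of every library. Steps were tested on simulated data. A marker gene of the lists is not reported here. The members, lists and settings were chosen with earlier results of these data known. Genes named besides the members are, of each list, those called and otherwise the 2 largest and 2 smallest fold changes, and the 3 most like genes of each member. Replicate numbers follow sample order and pair nothing. The median depth of 2678 to 7077 UMIs per ExN nucleus limits detection of sparse genes such as *FEZF2*.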

Additional observations from a re-analysis of the deposited data

How the results depend on the processing

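No layer marker was called in ExN under any of 12 settings, including DESeq2 and each injured library left out, and 6 of 7 log2 fold changes were positive in each. In nuclei with at most 2500 genes the signs of *CUX1* (0.090) and *THEMIS* (-0.16) were turned. The number of all ExN genes called was 582 and moved to 1193 with DESeq2, 228 with sums at 2000 UMIs, 243 in nuclei with at most 2500 genes, 1834 at an adjusted p limit of 0.05, and 78 to 926 without 1 injured replicate (78 without injured replicate 1). Scaling by library size alone shifted the median log2 fold change to -0.11 and the split of calls from 393 higher and 189 lower to 263 and 264. For ExN minus InN, 0 to 173 genes and 0 to 4 markers were called without 1 replicate, the most without injured replicate 2, where *CUX2* (0.86), *RORB* (1.03) and *TLE4* (-0.84) passed, as did *FEZF2*, whose fitted value rests on 0 UMIs in control InN and has no measured size.

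The difference in share, injured mean minus control, was in percentage points without thinning 7.77 for *CUX1*, 13.5 for *CUX2*, 11.8 for *RORB*, 11.7 for *FOXP2*, 3.96 for *FEZF2*, 5.62 for *THEMIS* and 16.1 for *TLE4*. At 4000 UMIs, which left out 75.7% of control nuclei, it was 6.77 for *RORB*, 2.03 for *FEZF2* and -5.53 for *THEMIS*. Without 1 injured replicate it was -2.45 to -2.18 for *CUX1*, 3.32 to 4.22 for *CUX2*, 2.93 to 5.40 for *RORB*, 0.73 to 3.16 for *FOXP2*, 0.55 to 1.48 for *FEZF2*, -2.04 to -0.57 for *THEMIS* and -0.61 to 4.27 for *TLE4*. In nuclei with at most 2500 genes the difference in log2 ratio to the upper markers was 0.29 for *RORB* and 0.098 for the deep markers. Of 20 co-detected pairs, 7 were above 1 and 13 below 1 in the injured mean and control at 2000 UMIs, 6 and 14 of 21 at 4000 UMIs, and 7 and 12 of 21 without thinning. The cause of these shifts was not tested. No paired analysis was possible because the control nuclei came from other animals, without lesion, that were pooled in 1 library.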

Other observations

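Outside ExN, *CUX1* and *CUX2* both had higher levels in control than in every injured library in astrocytes, oligodendrocytes and InN, but not in every cell type. *CUX1* had 470, 487 and 495 CPM in injured astrocytes and 991 CPM in control astrocytes, and 375, 344 and 452 CPM in injured and 800 CPM in control oligodendrocytes. *CUX2* had 19.1 to 43.0 CPM in injured and 83.2 CPM in control astrocytes, and 13.6 to 26.5 CPM in injured and 96.3 CPM in control oligodendrocytes. In InN, *CUX1* had 443 to 472 CPM in injured and 693 CPM in control, and *CUX2* had 95.7 to 122 CPM and 164 CPM. In endothelial nuclei *CUX2* went the other way, with 96.8 to 132 CPM in injured and 24.5 CPM, from 5 UMIs, in control. In microglia, *CUX1* was at 860 CPM in control, inside the injured range of 826 to 889 CPM, and *CUX2* in oligodendrocyte precursor cells had 19.6 to 25.2 CPM in the injured libraries and 0 UMIs in 171 control nuclei, which allows a share of nuclei with a UMI of up to 2.13% (exact binomial 95% limit). Median depths in the control library were 1183 UMIs in astrocytes and 900 UMIs in oligodendrocytes, and *CUX2* in control oligodendrocytes rests on 123 UMIs. These values were chosen after they were seen and were not tested.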
